A study of Mus musculus with 6 samples.

Results

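CpG methylation was measured along 9 PRDM genes, Prdm1, Prdm2, Prdm6, Prdm8, Prdm10, Prdm13, Prdm14, Prdm15 and Prdm16, in the hippocampal dentate gyrus of mice. A site belonged to a gene when it lay in the gene body or up to 1 kb upstream of its start in GENCODE M21, and 1075 of the 890041 CpG sites in the table met this rule. The 6 libraries came from 6 female C57BL/6JRj mice aged 4.5 months, which the study calls middle-aged. In the ENR group, 3 mice had lived in an enriched environment, a large enclosure with tunnels and toys that held a group of mice, and in the STD group 3 mice had lived in standard cages. Both groups were inbred mice without a transgene or drug, and each library held tissue of 1 mouse that was micro-dissected and not sorted by cell type. By the study's methods ENR mice of an experiment shared an enclosure and STD mice shared cages, so housing and cage cannot be told apart. Reduced representation bisulfite sequencing (RRBS) cuts DNA at CCGG, converts unmethylated cytosines with bisulfite and so reads the percentage of methylated reads at CpG-rich places.

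PRDM proteins carry a PR domain, related to the SET domain of histone methyltransferases, and in most members a row of zinc fingers that bind DNA. Some members methylate histone H3 themselves, and others recruit enzymes that do. They are known as switches of cell fate in germ cells, immune cells, muscle, fat and the nervous system, and in the hippocampus Prdm16 is known from neural stem cells and Prdm8 from developing neurons.

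The mean over all sites was between 21.3% and 24.3% in single libraries, and the library numbered 3 was the lowest of its group in STD and in ENR. The number of reads behind a percentage is unknown beyond the minimum of 10 that the authors set, so no interval for a single value could be given. Cell type markers could not be read from methylation, so the labelled tissue was not checked. In this mixed tissue a different share of a cell type and a different methylation within cells cannot be told apart.

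The members differed widely in methylation, from nearly none in Prdm15, Prdm13 and Prdm8 to the highest level in Prdm16. In the order of the mean over all 6 mice, Prdm15 had 1.15%, Prdm13 2.05%, Prdm8 2.77%, Prdm10 4.78%, Prdm2 6.79%, Prdm6 6.90%, Prdm14 15.2%, Prdm1 23.9% and Prdm16 32.4%. The ranges over single mice overlapped between Prdm15 and Prdm13, between Prdm13 and Prdm8, and between Prdm2 and Prdm6, and did not overlap between the other neighbours in this order. The median of the 9 genes was 6.79%, beside a median of 9.03% over 15362 protein-coding genes with at least 5 sites. These means depend on which parts of a gene RRBS covered, since 410 of the 653 sites outside Prdm16 lay within 1 kb of a transcript start but only 100 of the 422 in Prdm16.

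**Figure D1:**
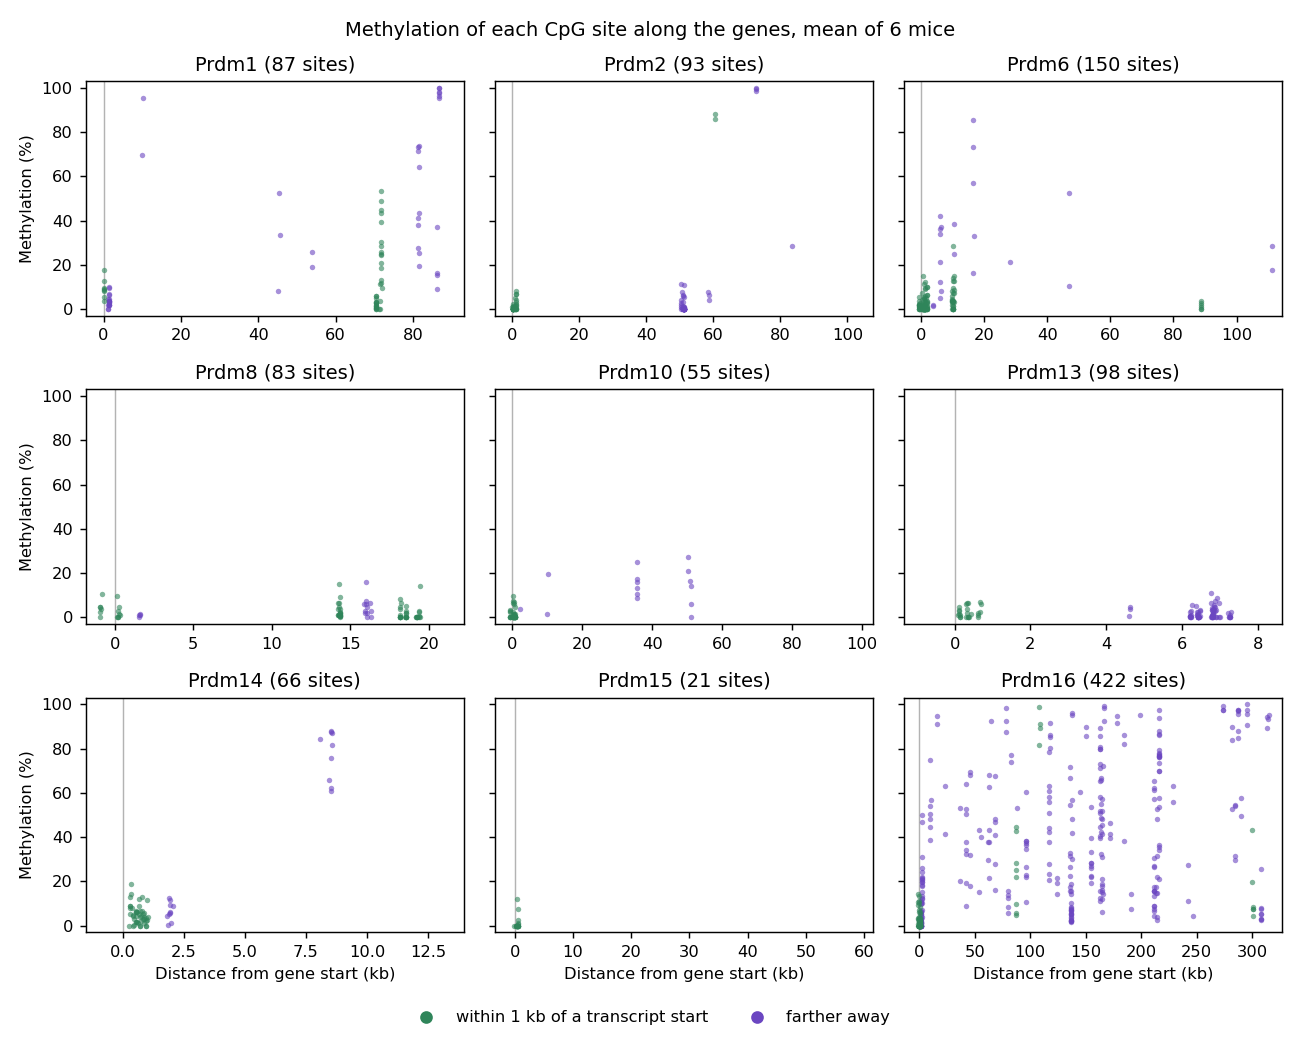
Methylation of each CpG site (vertical axis, percent, mean of 6 mice) by its distance from the gene start (horizontal axis, kb, a scale for each gene) in 9 PRDM genes. Green sites lay within 1 kb of a transcript start of any gene and purple sites farther away. Prdm8, Prdm13 and Prdm15 stayed low along all covered sites, and Prdm16 had values from 0% to 100% along its length.

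Of the members known for roles in neurons, Prdm8 and Prdm13 were almost free of methylation at the sites that RRBS covered. Parts of both genes were not covered, and 67 of the 83 Prdm8 sites lay within 1 kb of a transcript start. Prdm8 (chr5:98167198-98188991, plus strand, GRCm38) encodes a repressor that works with Bhlhe22 in developing neurons. At 79 of its 83 sites the mean was below 10%, and the 35 coding-exon sites had 1.89%. The gene overlaps A730035I17Rik, and 30 of the sites lay in both genes. Sites over 1 kb from every transcript start had 3.72% and sites within 1 kb 2.54%, a difference of 1.18 points ± 1.12 (SD, n = 6 mice) that was positive in 5 of 6 mice (exact sign-flip test, two-sided, p = 0.0625).

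Prdm13 (chr4:21677480-21685963, minus strand) acts downstream of Ptf1a in the choice between inhibitory and excitatory neurons of the spinal cord. At 97 of its 98 sites the mean was below 10%, and 81 of the sites were in coding exons, with 1.95%. Most of them, 60 sites, lay in 1 tile, a window of 1 kb. The body mean was 1.91% and the promoter mean 2.48%, a difference of -0.573 points that was positive in 1 of 6 mice (SD 1.57, n = 6 mice, exact sign-flip test, two-sided, p = 0.406). It was -0.0256 points without ENR mouse 2 and -0.984 without ENR mouse 3. The most densely covered stretch of coding exon is shown because it is CpG-rich coding sequence with hardly any methylation; capitals mark the 22 measured CpGs, which carried 31 sites with a mean of 2.72%, from 2.02% to 3.65% in single mice (chr4:21679045-21679206, plus strand of GRCm38).
Prdm13 coding exon: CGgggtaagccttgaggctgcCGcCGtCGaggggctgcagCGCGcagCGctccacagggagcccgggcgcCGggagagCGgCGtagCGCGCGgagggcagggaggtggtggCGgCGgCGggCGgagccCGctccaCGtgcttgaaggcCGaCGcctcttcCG

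Prdm16 (chr4:154316125-154636873, minus strand) encodes a factor of brown fat and neural stem cells and was the most methylated member. Its 45 upstream sites had 2.59% and the 68 sites in the first 2 kb of the gene 2.20%. From 2 to 50 kb the 45 sites had 36.3%, and in the following 50 kb stretches the means were 38.9%, 36.6%, 49.0% and 44.1%. The 22 sites between 250 and 300 kb had 79.1%, and the 18 sites beyond 300 kb had 29.1%. Methylation in the body exceeded that near starts by 31.8 points ± 3.002 (SD, n = 6 mice, higher in 6 of 6, exact sign-flip test, two-sided, p = 0.03125, the smallest p that 6 mice allow).

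Intermediate values were common in Prdm16. In its body 157 of 322 sites (48.8%) had means between 20% and 80%, beside 29.2% of all sites over 1 kb from a start. Prdm6 had a like share, 13 of 22 body sites (59.1%), and Prdm1 had 14 of 45 (31.1%). Near the end of the gene high and low places followed each other. The 3 sites of a tile with coding exon and intron had 92.3%, and the 8 coding-exon sites of the next covered tile, 5339 bp away, had 7.55%. That step of 84.7 points was between 71.4 and 93.7 points in each of 6 mice. The gene overlaps B230104I21Rik at 14 sites with a mean of 79.5%, Gm13111 at 7 sites with 5.88% and Gm13133 at 7 sites with 29.6%. A stretch near the start and the low coding exon are shown as low stretches of the gene, in which 151 of 422 sites (35.8%) had means below 10%; the last CpG of the coding exon was higher, at 25.5%. Capitals mark the measured CpGs, 14 in the first (chr4:154636216-154636397, 1.62%) and 7 in the second (chr4:154328699-154328817, 7.55%), on the plus strand of GRCm38.
Prdm16 near the start: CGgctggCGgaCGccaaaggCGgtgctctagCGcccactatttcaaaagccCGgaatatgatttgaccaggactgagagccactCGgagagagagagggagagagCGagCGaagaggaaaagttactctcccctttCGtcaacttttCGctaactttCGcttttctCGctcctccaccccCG
Prdm16 coding exon: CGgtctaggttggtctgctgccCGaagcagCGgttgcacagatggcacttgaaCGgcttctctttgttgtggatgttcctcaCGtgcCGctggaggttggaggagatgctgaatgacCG

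Prdm1 and Prdm14, a pair of repressors known from the specification of germ cells, had strongly methylated places inside the gene. Prdm1 (chr10:44437177-44528501, minus strand), also called Blimp1, drives plasma cell differentiation. Its 42 sites within 1 kb of a start had 13.4%, with 27.6% at 16 of them beside an internal start, and the 45 others had 33.7%, a difference of 20.3 points ± 4.34 (SD, n = 6 mice, higher in 6 of 6, exact sign-flip test, two-sided, p = 0.03125). With medians over sites it was 11.5 points (exact sign-flip p = 0.0625). The sharpest step lay between neighbouring tiles. The 6 sites in a coding exon had 97.9%, and 4 intronic sites had 19.4% at a distance of only 370 bp. The step of 78.4 points was between 70.1 and 92.3 points in the 6 mice. Both sides are shown with measured CpGs in capitals, the methylated exon at chr10:44441761-44441925 and the intron at chr10:44442294-44442357, plus strand of GRCm38.
Prdm1 coding exon, 97.9%: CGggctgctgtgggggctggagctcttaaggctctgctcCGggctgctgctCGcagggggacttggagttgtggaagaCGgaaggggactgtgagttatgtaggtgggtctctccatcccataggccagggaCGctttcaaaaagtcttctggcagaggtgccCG
Prdm1 intron, 19.4%: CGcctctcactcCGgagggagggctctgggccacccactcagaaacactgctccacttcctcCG

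Prdm14 (chr1:13113457-13127163, minus strand) also maintains pluripotency. Its 47 sites near the start had 5.18% and its 19 others 39.96%, a difference of 34.8 points ± 3.85 (SD, n = 6 mice, higher in 6 of 6, exact sign-flip test, two-sided, p = 0.03125). Of those 19 sites, 10 formed a low tile with 6.61% about 1.92 kb from the start. Among its tiles with at least 3 sites, the one with the highest mean held 8 intronic sites about 8.52 kb from the start. They had 76.1%, from 62.0% to 86.3% in single mice. This tile is shown as a methylated stretch with a high observed to expected CpG ratio of 0.779. Capitals mark its 7 measured CpGs (chr1:13118583-13118710, plus strand of GRCm38).
Prdm14 intron: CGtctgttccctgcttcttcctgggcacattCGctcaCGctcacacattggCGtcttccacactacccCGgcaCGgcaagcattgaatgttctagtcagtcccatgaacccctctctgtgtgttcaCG

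Of the members with broader expression, Prdm2 and Prdm10 had low starts. Prdm2 (chr4:143107391-143212995, minus strand), also called RIZ1, is a histone methyltransferase known as a tumour suppressor. Its 41 sites near starts had 5.42% and its 52 others 7.87%, a difference of 2.45 points ± 0.855 (SD, n = 6 mice, higher in 6 of 6, exact sign-flip test, two-sided, p = 0.03125). It was lost with medians over sites (0 points, exact sign-flip p = 1) and with starts within 500 bp (0.252 points, exact sign-flip p = 0.594). This small difference came from unlike parts. Of the 41 sites near starts, 2 lay about 60.6 kb inside the gene, near the start of the pseudogene Gm13038, and had 87.0%. The tiles at the gene start had 0.924% at 30 sites and 2.28% at 9. A cluster of 45 intronic sites between 50.3 and 51.3 kb from the gene start had only 1.45%, from 0.604% to 1.85% in single mice, and 29 of the sites were at 0% in all 6. The nearest GENCODE transcript start was 3937 bp away, while RefSeq places predicted Prdm2 transcript starts within the cluster, the nearest 46 bp from a site. With RefSeq starts counted as well, 7 sites were left in the body, and they had 49.2%. The 8 CpGs at one end of the cluster are shown in capitals because this weakly methylated stretch lay deep inside the gene (chr4:143162444-143162666, plus strand of GRCm38). They had 3.68%, beside 0.965% at the other 37 sites.
Prdm2 intronic cluster: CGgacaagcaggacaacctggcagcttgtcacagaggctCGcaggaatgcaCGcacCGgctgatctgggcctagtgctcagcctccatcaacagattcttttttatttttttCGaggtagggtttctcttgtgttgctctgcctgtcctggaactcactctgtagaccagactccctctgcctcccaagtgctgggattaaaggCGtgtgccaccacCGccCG

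Prdm10 (chr9:31280538-31381723, plus strand) had 1.52% at 40 sites near starts and 13.5% at 15 others, a difference of 11.9 points ± 4.01 (SD, n = 6 mice, higher in 6 of 6, exact sign-flip test, two-sided, p = 0.03125). Near its start 30 sites also belong to 4930517E14Rik, with 1.80%. The coding-exon sites of Prdm10, 6 in all, had 15.2%. Prdm15 (chr16:97791467-97851850, minus strand), known from early embryos, was covered only around its start, where 16 of 21 sites were at 0% in all mice and the mean was 1.15%. Prdm6 (chr18:53463583-53575907, plus strand) encodes a repressor of smooth muscle cells. Its 128 sites near starts had 2.94% and its 22 others 29.9%, a difference of 27.0 points ± 7.14 (SD, n = 6 mice, higher in 6 of 6, exact sign-flip test, two-sided, p = 0.03125).

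Low sites lay in CpG-rich sequence. Around the 692 member sites with a mean below 10%, the observed to expected CpG ratio within 100 bp on each side had a median of 0.818, and around the 71 sites above 80% it was 0.447. Island-like sequence here means at least 50% G and C and a ratio of at least 0.6. The 649 island-like sites had a mean of 7.47% and the 426 others 33.5%. Over the 1075 sites the rank correlation of ratio and level was -0.568, a description only, since neighbouring sites share fragments and sequence. In Prdm14 the mean was 15.96% at 43 island-like sites and 13.8% at 23 others, while the rank correlation over its 66 sites was -0.347. Prdm13, low along its covered sites, had a rank correlation of -0.0455 over 98 sites.

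**Figure D2:**
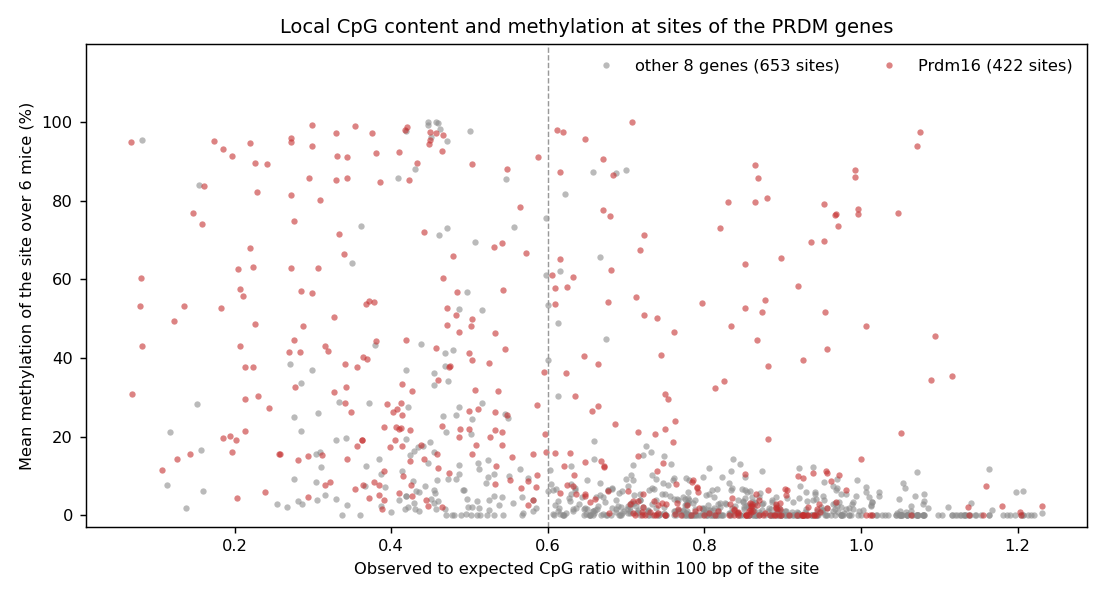
Observed to expected CpG ratio within 100 bp of each member site (horizontal axis) and the site's mean methylation over 6 mice (vertical axis, percent), with Prdm16 in red and the other 8 genes in grey. The dashed line is the ratio of 0.6 used for island-like sequence, and sites to its right are mostly near 0%.

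The second question was whether ENR housing changed methylation of these genes. In every member gene the values of the groups overlapped, and no difference passed a test. Prdm16 had 34.6%, 33.7% and 31.2% in the STD mice and 33.5%, 33.1% and 28.1% in the ENR mice. The ENR values were mixed with the STD values apart from the lowest, ENR mouse 3. The difference was -1.61 points (exact permutation test, two-sided, p = 0.5, where 3 against 3 allows no p under 0.1), and without ENR mouse 3 it was 0.129 points.

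Prdm14 had 15.8%, 16.07% and 16.03% in STD and 17.3%, 13.4% and 12.5% in ENR. The STD mice were nearly equal, and ENR mice lay on both sides of them, so the difference of -1.56 points was within the ENR spread of 2.56 (SD, n = 3, exact permutation p = 0.4). Without ENR mouse 1 it was -3.01 points and without ENR mouse 3 -0.597. Over its 19 sites far from starts it was -3.49 points (exact permutation p = 0.5). Prdm13 had 2.27%, 2.74% and 2.02% in STD and 1.76%, 2.07% and 1.42% in ENR. The difference of -0.592 points was larger than the SD within STD (0.367) and within ENR (0.326, n = 3 each), but 1 ENR mouse lay within the STD range (exact permutation p = 0.2). It was -0.202 points after quantile normalization and -0.0905 with all libraries shifted to the same mean. The SDs within groups after these steps are not given. Prdm8 had 2.86%, 1.80% and 2.92% in STD and 3.23%, 2.88% and 2.93% in ENR, which overlapped too (0.486 points, exact permutation p = 0.2, and 0.123 points without STD mouse 2).

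In the remaining genes the difference of means was 0.105 points for Prdm1, -0.160 for Prdm2, -1.13 for Prdm6, -0.789 for Prdm10 and 0.371 for Prdm15, with exact permutation p-values from 0.4 to 1. The sign turned for Prdm1 without any 1 of 4 mice (-1.24 to 2.02 points over the 6 omissions), for Prdm15 without any 1 of 3 (-0.110 to 1.24), and for Prdm2 with libraries shifted to the same mean (0.341) or quantile normalized (0.226). Without ENR mouse 3 that of Prdm6 was -0.230, and that of Prdm10 was -0.182 without STD mouse 2 and -1.54 without STD mouse 1. Over sites far from starts the difference was larger, -7.39 points for Prdm6 and -3.83 for Prdm10, with overlap of the groups in both (exact permutation p = 0.3 each). The groups overlapped in all 9 members, against 8.33% of 20891 genes in which they did not. The median difference was -0.592 points over the members, 6 of 9 being lower in ENR, and -0.189 points over protein-coding genes, of which 58.6% were lower. The limma test across all genes called 0 of the 9 members and 0 of 20884 genes (0%) at an adjusted p under 0.05. At an unadjusted p under 0.05 it had 0 of the 9 members and 771 genes (3.69%), and every other limma setting also called 0 genes.

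**Figure D3:**
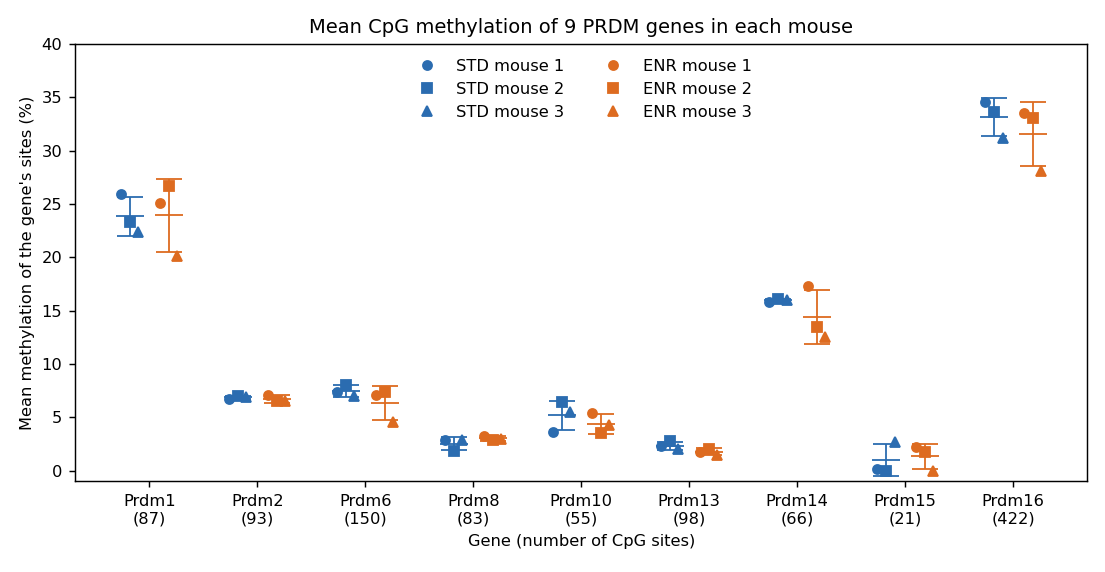
Mean CpG methylation (vertical axis, percent) of each PRDM gene over its sites (number in brackets) in 3 STD mice (blue) and 3 ENR mice (orange), with a symbol for each mouse and bars for the mean and SD of each group. The groups overlap in all 9 genes, and Prdm16 is the highest in every mouse, between 28.1% and 34.6%.

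At single sites, differences over 25 points between group means were found in 31 of the 1075 sites (2.88%), of which 21 were lower and 10 higher in ENR. Over all sites 1.23% were lower and 0.706% higher by that much, and in the members 1.95% and 0.930%. Prdm16 held 25 of the 31, and the other 8 genes together held 6 of 653 (0.919%). In 17 sites the groups also did not overlap, which is 1.58% of the members' sites and 0.81% of all sites. Among sites over 1 kb from every start, 24 of 322 Prdm16 sites (7.45%) and 3.93% of all sites differed by over 25 points. These sets were not at equal levels, since 48.8% of the former and 29.2% of the latter had intermediate means. Without ENR mouse 3 the members had 40 such sites, 20 lower and 20 higher, and without STD mouse 1 they had 49.

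None of these differences was called. Limma called 0 of the 826 member sites tested and 0 of 615152 sites in all (0%). At an unadjusted p under 0.05 it had 27 member sites (3.27%) and 16498 of all sites (2.68%), and the smallest adjusted p was 0.852. Among 81 tiles of 1 kb with at least 3 member sites it called 0, beside 0 of 72222 tiles in all (0%), with 6 member tiles (7.41%) and 2874 of all tiles (3.98%) at an unadjusted p under 0.05. The other limma settings also called 0 sites and 0 tiles.

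**Figure D4:**
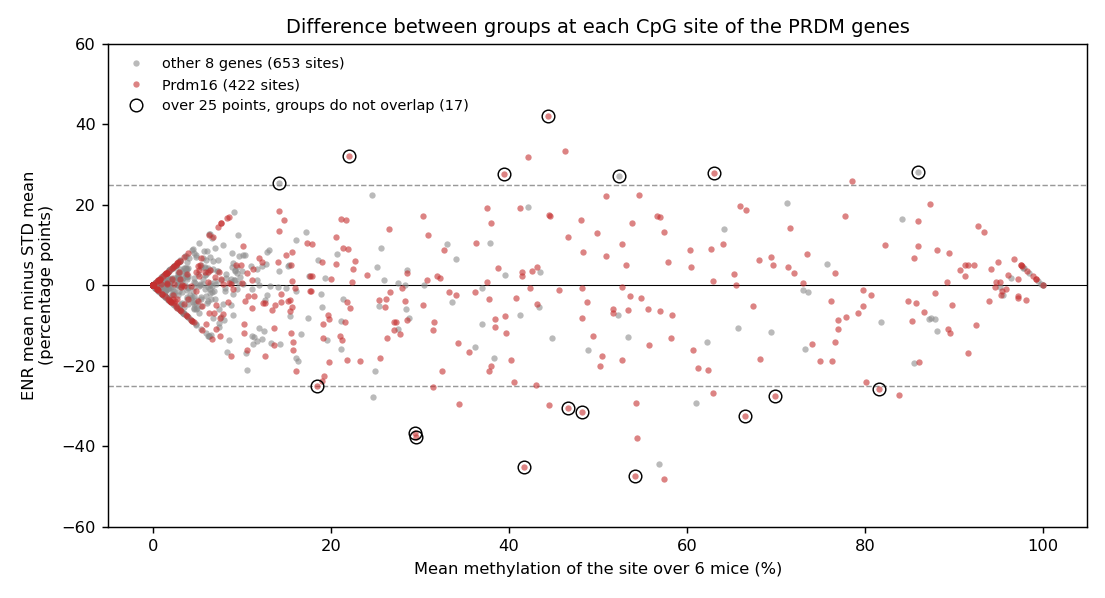
Difference of group means, ENR minus STD (vertical axis, percentage points), against the mean over 6 mice (horizontal axis, percent) for 1075 CpG sites of the PRDM genes. Prdm16 is red and the other 8 genes grey; dashed lines mark 25 points either way, and circles mark the 17 sites beyond them whose groups do not overlap, 14 of them in Prdm16.

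All 25 Prdm16 sites over 25 points were intronic, in 16 tiles between 2.08 and 284.5 kb from the start, and 22 of them had means between 20% and 80%. They were lower in ENR at 18 sites and higher at 7. After leaving out any 1 mouse, between 15 and 24 of the 25 stayed over 25 points and none changed sign, the 15 being without ENR mouse 3. For the 14 of them without overlap a change of sign was not possible. Over the 163 Prdm16 sites with intermediate means, STD mice had 50.7%, 48.9% and 43.8% and ENR mice 49.4%, 47.8% and 37.4%. The mice numbered 3 were thus the lowest of each group there, as they were over all sites.

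The groups did not overlap in 10 of the 38 Prdm16 tiles, 6 lower and 4 higher in ENR, and in 14 of the 81 tiles of all members (17.3%), beside 8.86% of all tiles. After quantile normalization, which gives all libraries the same distribution, 5 Prdm16 tiles and 8 of the 81 member tiles (9.88%) were without overlap, beside 9.68% of all tiles. The largest tile difference was in an intron 284.5 kb from the start. Its 4 sites had means of 57.0%, 64% and 61.2% in the STD mice and 50.5%, 14.4% and 7.14% in the ENR mice. All ENR mice were below the STD mice, ENR mouse 1 only narrowly and the other two by far. The difference was -36.8 points (STD SD 3.51, ENR SD 23.2, n = 3 each, limma unadjusted p = 0.0227, adjusted p = 1), all 4 sites were lower in ENR, and leaving out any 1 mouse gave -49.996 to -28.3 points.

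The stretch with these 4 CpGs in capitals follows, as the place of the largest tile difference (chr4:154352337-154352411, plus strand of GRCm38, intron of Prdm16).
Prdm16 intron, largest tile difference: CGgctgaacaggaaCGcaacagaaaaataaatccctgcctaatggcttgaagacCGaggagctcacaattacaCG
Its last CpG was also the single site with the largest difference without overlap. At that site the STD mice had 74.4%, 84% and 75% and the ENR mice 63.7%, 13.3% and 14.3%. Again ENR mouse 1 stayed near the STD mice (-47.3 points, limma adjusted p = 0.852). A second tile with at least 3 sites differed by over 25 points and was named after its values were seen. It lay 171.7 kb from the start, and its 3 sites had 31.3%, 28.9% and 26.8% in STD and 38.9%, 61.2% and 67.0% in ENR. Here every ENR mouse was above the STD mice (26.7 points, limma unadjusted p = 0.0317, adjusted p = 1).

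**Figure D5:**
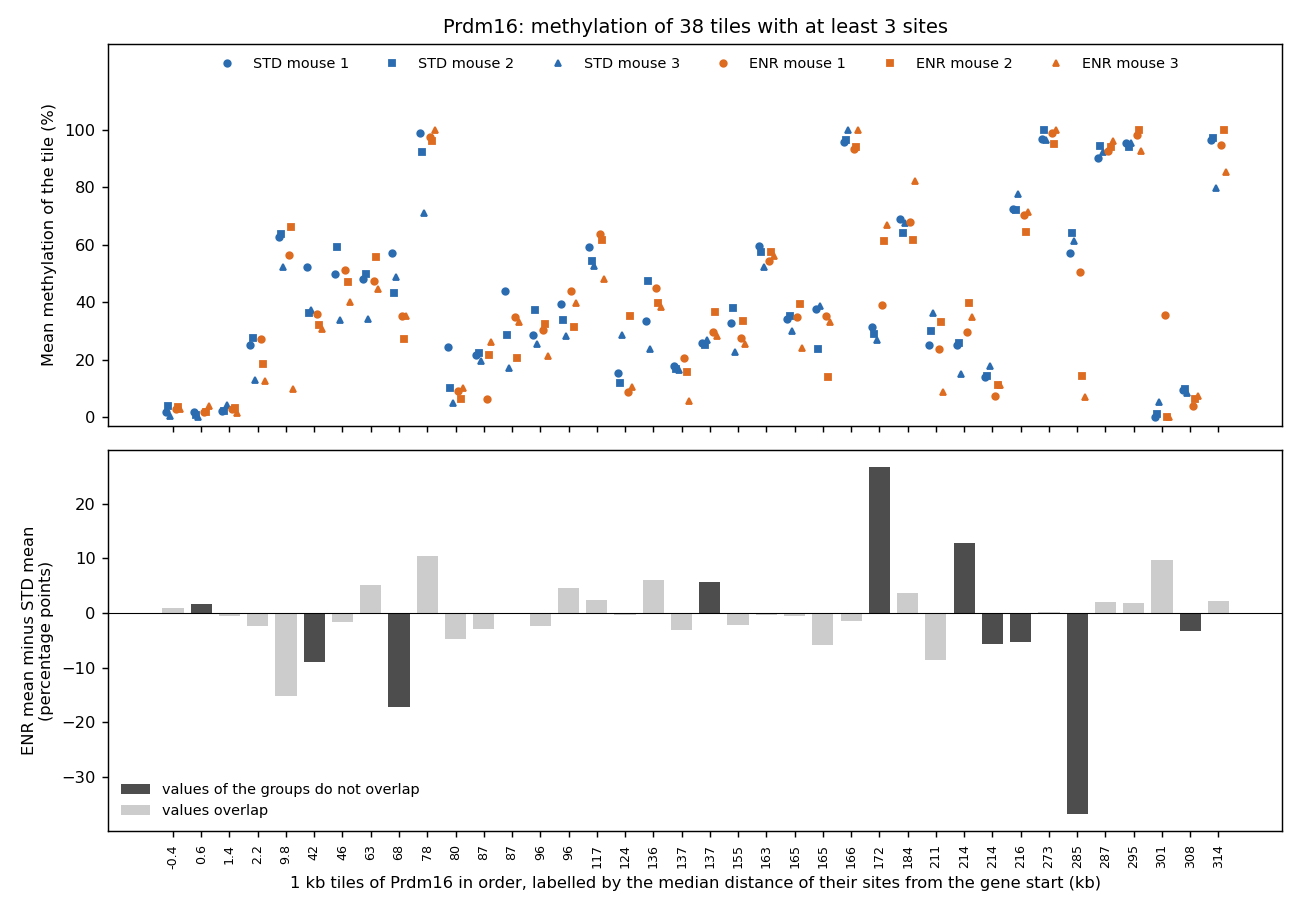
Upper panel: mean methylation (vertical axis, percent) of 38 tiles of Prdm16 in each STD mouse (blue) and ENR mouse (orange), in order from the start; lower panel: ENR mean minus STD mean (percentage points), dark where the groups do not overlap. The tiles near the start are close to 0%, most others spread between 10% and 100%, and 1 tile at 285 kb differs by -36.8 points.

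A pair of further Prdm16 sites met the rule for named sites, at most 1 per tile and 3 per gene. At the site 137.9 kb from the start the STD mice had 52.3%, 65.8% and 75% and the ENR mice 21.1%, 15% and 21.4%. The groups were far apart (-45.2 points, limma unadjusted p = 0.0141, adjusted p = 0.852), but 5 other sites within 100 bp differed by 11.8 points on average in the other direction. At the site 117.0 kb from the start the STD mice had 39.5%, 30.4% and 0% and the ENR mice 85.7%, 45.5% and 65%. All ENR mice were above all STD mice (42.1 points, limma unadjusted p = 0.0459, adjusted p = 0.852), and the single other site within 100 bp differed the same way by 32.0 points. Both sites are shown in capitals with 30 bp on each side, the first at chr4:154498952-154499012 and the second at chr4:154519860-154519920.
Prdm16 intron, lower in ENR: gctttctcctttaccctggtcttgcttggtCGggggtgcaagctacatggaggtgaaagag
Prdm16 intron, higher in ENR: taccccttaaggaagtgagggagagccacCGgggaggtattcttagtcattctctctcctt

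Of the other members, Prdm1, Prdm2 and Prdm8 each had 1 site over 25 points without overlap, all higher in ENR. These 3 were 0.459% of the 653 sites outside Prdm16, beside 0.81% of all sites. With overlapping sites counted as well, 3 sites outside Prdm16 were lower and 3 higher by over 25 points. At the Prdm2 site the STD mice had 71.4%, 75.6% and 68.8%, and all 3 ENR mice had 100%. The STD mice were close together and all below the ENR mice (28.1 points, limma unadjusted p = 0.000514, adjusted p = 0.852), while the 1 other site within 100 bp differed by -11.4 points. Both Prdm2 CpGs are in capitals at chr4:143152357-143152417, an intron of Prdm2 that lies 185 bp from the start of Gm13038, a processed pseudogene.
Prdm2 intron: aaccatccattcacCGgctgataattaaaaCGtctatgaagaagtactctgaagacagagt
At the Prdm8 site, in a coding exon at chr5:98186620, the STD mice had 0%, 0% and 4.17% and the ENR mice 27.6%, 22.2% and 31.0%. All ENR mice were above all STD mice (25.5 points, limma unadjusted p = 0.00804, adjusted p = 0.852), but 5 other sites within 100 bp differed by only 1.43 points on average.

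The Prdm8 tile with that site had 0.608%, 0% and 0.347% over 12 sites in STD and 4.69%, 1.85% and 2.58% in ENR. The groups did not overlap, at a difference of 2.72 points (limma unadjusted p = 0.0125, adjusted p = 1), and 1 of the 12 sites carried most of it. At the Prdm1 site, in an intron 45.4 kb from the start, the STD mice had 31.0%, 35.4% and 50% and the ENR mice 53.1%, 85% and 60%. The groups were apart but close at their edges (27.2 points, limma unadjusted p = 0.0940, adjusted p = 0.852), and without ENR mouse 2 the difference was 17.7 points. The 1 other site within 100 bp differed by -4.09 points. The CpG is in capitals (chr10:44483031-44483091, plus strand of GRCm38).
Prdm1 intron: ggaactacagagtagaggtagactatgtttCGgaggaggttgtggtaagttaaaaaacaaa

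Among tiles with at least 3 sites, Prdm6 and Prdm13 each had 1 without overlap that was lower in ENR. Prdm6 also had an upstream tile of 10 sites that was higher by 2.09 points. With the sites of that tile outside the gene window, 16 in all, it was 1.30 points. Tiles without overlap were 2 of 8 in Prdm6, 1 of 7 in Prdm8 and 1 of 4 in Prdm13, beside 8.86% of all tiles. In Prdm1, Prdm2, Prdm10, Prdm14 and Prdm15 they were 0 of 9, 6, 5, 3 and 1. The Prdm6 tile, with 5 intronic sites 16.5 kb from the start, had 54.4%, 73.9% and 57.1% in STD and 49.2%, 54.1% and 29.4% in ENR. The lowest STD and the highest ENR mouse almost met, at a difference of means of -17.6 points (limma unadjusted p = 0.123, adjusted p = 1), and without ENR mouse 3 it was -10.2 points. The Prdm13 tile, with 3 intronic sites, had 4.42%, 3.196% and 5.69% in STD and 0.575%, 2.78% and 2.08% in ENR. All values were low, and the difference was -2.63 points (limma unadjusted p = 0.0276, adjusted p = 1).

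Of 45 gene parts compared, 3 (6.67%) had no overlap, which is below the 8.33% of whole genes, all picked after their values were seen: the coding exons of Prdm13, its body sites, which share most of their sites with those exons (-0.613 points), and the upstream sites of Prdm6. The 81 coding-exon sites of Prdm13 had 2.36%, 2.93% and 1.67% in STD and 1.58%, 1.53% and 1.64% in ENR, and the 17 sites upstream of Prdm6 had 0.744%, 0.614% and 0.662% in STD and 3.37%, 2.21% and 1.87% in ENR. The coding exons of Prdm13 differed by -0.735 points and the upstream sites of Prdm6 by 1.81 points, and no test is given for parts picked this way.

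Among 9 genes for partners of PRDM proteins (Bhlhe22, Ptf1a, Cbfa2t2, Ehmt1, Ehmt2, Ctbp1, Ctbp2, Prmt5 and Cebpb) levels ran from 0.213% to 17.7% and differences from -0.589 to 0.818 points. In Bhlhe22, the partner of Prdm8, and in Cbfa2t2, a partner of Prdm14, the groups did not overlap, at 0.746 and 0.818 points higher in ENR. These are 2 of 9 partners, beside 8.33% of all genes. The limma test called 0 of these 9 genes, and 0 of them had an unadjusted p under 0.05. Sites over 25 points were 4 of 612 (0.654%) in the partners, beside 1.94% of all sites.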

How the data were processed

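Genomic DNA of the dentate gyrus of 6 mice was profiled by RRBS. The submitters' processing notes name Trim Galore 0.4.0, cutadapt 1.8.1, Bismark 0.16.1 and methylKit 1.5.2 with mm10. The authors removed 2 further bases from reads with adapter, since these are filled in during library preparation, and kept cytosines with at least 10 reads. The deposited values are the percent of methylated reads per cytosine and mouse, unpooled and without read numbers, so the study's test on reads could not be run, the depth of a site is unknown, and a site read rarely weighs as much as one read often. Groups came from the labels, and each library was a separate mouse.

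Both strands of a CpG were kept as separate sites: the members held 914 CpGs, 161 with both strands, whose median difference was 2.03 points. Promoter sites lay within 1 kb of any GENCODE M21 transcript start. Genes with at least 5 sites, tiles of 1 kb with at least 3 sites, and all varying sites entered linear models of limma 3.58.1 (R 4.3.3) on the percentages, with a variance trend and Benjamini-Hochberg adjustment over the whole table. Calls of tiles and sites also needed a difference over 25 points. The procedure was tested on simulated data. Values per gene were compared by exact permutation over the 20 regroupings, and body minus promoter by exact sign flips. Sequences came from GRCm38 with samtools 1.23.1, at named places only, and are given for Prdm1, Prdm2, Prdm13, Prdm14 and Prdm16.

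Members, lists and rules were chosen with earlier results of these data known. All 9 members were described; a list of further genes of the family is not reported here. Named sites were up to 3 per member with the largest difference among those over 25 points without overlap, at most 1 per tile. Named tiles were, per member and among tiles with at least 3 sites, the one with the largest difference without overlap, the most methylated, and the least methylated away from promoters. Named boundaries were the largest steps between covered tiles whose edges were at most 5 kb apart. Alternatives changed the scale, normalization, limits, tile size, strands, promoter width, the libraries used and a replicate block.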

Additional observations from a re-analysis of the deposited data

How the results depend on the processing

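Calls stayed at 0 for genes, tiles and sites in every limma setting run, including each mouse left out and the replicate block. With 3 mice per group and unknown read depth, small differences of single genes could not be resolved.

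The labels number the mice 1 to 3 in both groups. Deviations from the group means correlated at 0.0552, 0.0319 and 0.1250 between mice of the same number, and STD mouse 2 correlated best with ENR mouse 1 (0.0410), so the numbers were not treated as pairs. With the replicate block limma again called 0 genes, with 1063 in place of 771 at an unadjusted p under 0.05, and the differences of the members were the same by construction (-1.61 points for Prdm16), at exact sign-flip p-values from 0.25, the smallest possible with 3 pairs, to 1.

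The sign of a gene's difference turned in these cases, none with a call, and the cause was not tested. With only sites near starts the difference was -0.191 points for Prdm1, 0.200 for Prdm2, 0.3497 for Prdm10 and 0.719 for Prdm16, and with only sites far from starts -0.0879 for Prdm8. With the mean of tile means it was -0.551 for Prdm1, 0.152 for Prdm2 and 1.32 for Prdm14, and with the median over sites 0.641 for Prdm14. Prdm2 also turned with libraries shifted to 1 mean (0.341), with quantile normalization (0.226) and with intermediate sites only (0.0288). Larger values of the same sign came from sites far from starts (-7.39 for Prdm6, -3.83 for Prdm10, -3.49 for Prdm14), intermediate sites (-8.05, -7.35 and -12.2) and tile means (-4.73 for Prdm6, -2.34 for Prdm10), and the median was 0 in 6 genes. Quantile normalization also moved Prdm1 to 0.893, Prdm6 to -0.624, Prdm8 to 0.933, Prdm10 to -0.299, Prdm13 to -0.202, Prdm14 to -0.790, Prdm15 to 0.203 and Prdm16 to -0.653. Leaving out 1 mouse gave -1.24 to 2.02 points for Prdm1, -0.110 to 1.24 for Prdm15 and -2.59 to 0.129 for Prdm16, where only the value without ENR mouse 3 was positive. It also gave -0.363 to -0.0527 for Prdm2, -1.67 to -0.230 for Prdm6, 0.123 to 0.681 for Prdm8, -1.54 to -0.182 for Prdm10, -0.755 to -0.394 for Prdm13 and -3.01 to -0.597 for Prdm14.

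Of the 1075 member sites 31 differed by over 25 points, 49 by over 20 and 5 by over 40; without Prdm16, a setting chosen after seeing the data, 6 remained. Leaving out 1 mouse gave 37 to 49 (49 without STD mouse 1). Sites without overlap, 17 in all, were 3 at a limit of 40 and 3 without Prdm16. With 1 mouse left out they were 20 to 33, with 31 without STD mouse 1, 28 without STD mouse 2, 33 without ENR mouse 1 and 26 without ENR mouse 2 or 3. Groups of 2 against 3 mice separate more easily than 3 against 3, so this rise is in part built in.

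The width of the promoter window moved body minus promoter by over 1.5 times in 6 genes. With 500 bp in place of 1 kb it was 9.60 points for Prdm1, 8.56 for Prdm6 and 10.4 for Prdm14, and with 2 kb 43.0 for Prdm1 and 64.8 for Prdm14, in place of 20.3, 27.0 and 34.8. Prdm8 went from 1.18 to 2.15 with 2 kb and Prdm13 from -0.573 to -0.355 with 500 bp, and Prdm2 follows. The call was lost with the median over sites for Prdm1 (11.5 points, exact sign-flip p = 0.0625) and Prdm2 (0 points), and with starts within 500 bp for Prdm2 (0.252 points, exact sign-flip p = 0.594). With 5 mice no p under 0.0625 is possible, and the leave-one-out differences were 19.2 to 21.2 points for Prdm1, 2.13 to 2.59 for Prdm2, 25.5 to 29.6 for Prdm6, 10.7 to 12.7 for Prdm10, 33.7 to 36.0 for Prdm14, 31.3 to 33.0 for Prdm16, 0.889 to 1.44 for Prdm8 and -0.984 to -0.0256 for Prdm13, which strands averaged put at -0.275. Under quantile normalization, chosen after seeing the data for these, the 6 named sites and 4 of the named tiles kept their direction; since they were picked for groups without overlap, leaving out a mouse could not turn it.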
